A study of Mus musculus with 40 samples.

Results

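TGF-beta response genes were taken here as the 9 genes Smad7, Skil, Thbs1, Tgfbi, Pmepa1, Tgif1, Angptl4, Ski and Bhlhe40, which are widely known as direct targets of TGF-beta signaling, and they were chosen by symbol from the 45706 genes measured. The choice was made with earlier results of these data known, so counts of members beside the shares of all genes are a description. RNA had been sequenced from sorted cells in 40 libraries, 4 for each of 10 groups. In the tumor model, mice carried Cdx2CreERT2, a tamoxifen-inducible Cre recombinase driven by the intestinal Cdx2 promoter, and Apc fl/fl, a floxed tumor suppressor of the Wnt pathway, and 1 intraperitoneal dose of Tamoxifen at 25 mg/kg, given at 8 to 10 weeks of age per the labels, deleted Apc in the gut epithelium. Their strain is labelled C57Bl6/Sv129 in the first sample, and the number after Sv rises from sample to sample in the others. Healthy mice were C57Bl6 with no transgene and no agent, and no age is labelled for them. Neutrophils and monocytes were sorted from colon tumors, from the blood of the tumor-bearing mice and from the blood of healthy mice, while epithelial and stromal cells were sorted from colon tumors and from healthy colon. All tumor and colon cells were released with collagenase IV, Dispase and DNase I and blood cells were not, so that tumor and enzyme treatment cannot be told apart in the comparison with blood. Strain, transgene and tamoxifen likewise cannot be told apart from the tumor in the comparisons with healthy mice. The titles of 4 blood libraries name a pair of animals, and labels do not say whether equal numbers in other titles mark 1 animal, so p-values measure the spread between these libraries. Tumor stromal library 4 is labelled as replicate 3 a second time and was numbered in accession order.

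All members are protein-coding, and their positions are those of the mm10 annotation in the files. Smad7 (ENSMUSG00000025880) was annotated at chr18:75367529-75395935, Skil (ENSMUSG00000027660) at chr3:31095058-31122577, Tgfbi (ENSMUSG00000035493) at chr13:56609523-56639562, Thbs1 (ENSMUSG00000040152) at chr2:118111876-118127133 and Bhlhe40 (ENSMUSG00000030103) at chr6:108660629-108666925, all on the plus strand. Pmepa1 (ENSMUSG00000038400) at chr2:173224458-173276533, Tgif1 (ENSMUSG00000047407) at chr17:70844205-70853546, Angptl4 (ENSMUSG00000002289) at chr17:33773750-33781830 and Ski (ENSMUSG00000029050) at chr4:155154075-155222592 were on the minus strand. Thbs1 overlaps the minus-strand lincRNA gene Gm29233 and Bhlhe40 the antisense gene 0610040F04Rik, and as the cDNA kit that was described does not mark strand, reads of these 2 members and of those genes cannot be told apart.

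TGF-beta is a secreted cytokine that is stored in a latent form in the matrix. Once released, it joins its type I and type II receptors, which phosphorylate SMAD2 and SMAD3, and these enter the nucleus with SMAD4 and bind short CAGA and GC-rich motifs. Many of the first genes to be induced switch the pathway off again: Smad7 encodes the inhibitory SMAD that blocks the type I receptor, Pmepa1 a membrane protein that holds SMADs away from the receptor, and Skil (SnoN), Ski and Tgif1 nuclear co-repressors of SMADs. Bhlhe40 encodes a transcriptional repressor, Thbs1 the matrix protein thrombospondin-1, itself an activator of latent TGF-beta, Tgfbi a secreted matrix protein, and Angptl4 a secreted inhibitor of lipoprotein lipase. Most of these genes also answer to other signals: Bhlhe40 and Angptl4 to low oxygen, Angptl4 to PPAR ligands, and Thbs1 and Bhlhe40 to stress.

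RefSeq promoter windows (GRCm38.p6) matched 3 members, with 1 window for Tgfbi, 5 for Tgif1 and 1 for Ski. The first window of each is shown, 5′ to 3′ on the strand of the gene and up to the base before the annotated gene start, as the sequence before the start of each member that has one. Capitals mark the letters CAGAC, which SMADs bind, on either strand. Capitals also mark the GC-rich letters GGCGC, likewise searched on both strands, and longer runs of capitals are matches that overlap.
Tgfbi, chr13:56609336-56609522 (plus strand): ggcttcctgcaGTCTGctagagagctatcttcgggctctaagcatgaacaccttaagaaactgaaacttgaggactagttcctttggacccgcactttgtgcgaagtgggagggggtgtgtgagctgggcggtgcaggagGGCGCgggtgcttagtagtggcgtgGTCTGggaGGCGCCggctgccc
Tgif1, chr17:70853547-70853782 (minus strand): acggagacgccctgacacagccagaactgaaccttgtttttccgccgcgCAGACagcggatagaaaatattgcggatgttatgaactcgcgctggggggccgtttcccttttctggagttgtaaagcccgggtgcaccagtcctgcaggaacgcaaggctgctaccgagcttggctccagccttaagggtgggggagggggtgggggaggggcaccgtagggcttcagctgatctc
Ski, chr4:155222593-155222785 (minus strand): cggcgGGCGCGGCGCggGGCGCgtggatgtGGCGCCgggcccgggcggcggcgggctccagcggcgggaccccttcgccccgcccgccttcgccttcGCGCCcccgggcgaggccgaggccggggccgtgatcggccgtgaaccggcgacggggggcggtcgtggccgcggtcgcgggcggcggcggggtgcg
Over the whole 250 bases before the RefSeq start site, the Tgfbi window held 2 matches to CAGAC and 3 to GGCGC, the Tgif1 window 1 and 0, and the Ski window 0 and 7. At least 1 CAGAC was found in 42.2% and at least 1 GGCGC in 32.0% of all 32851 windows of that length, so both are common letters. The palindrome GTCTAGAC, present in 0.167% of windows, was in none of the 7 windows of the members. GC content was 87.6% in the Ski window, 62.4% in that of Tgfbi and 59.6% in that of Tgif1.

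Depth was 10717873 to 38002939 counts on genes per library, of which mitochondrial genes took 5.34% to 83.9%. Several libraries stood apart from their label, and the cell type of a sort is therefore given together with its markers. Tumor neutrophil library 1 held epithelial markers, such as Epcam and Cdh1, at a median of 79.5% of their mean level in sorted tumor epithelial cells, against 4.90% to 17.7% in the other 3 tumor neutrophil libraries, and its 8 neutrophil markers summed to 1923 RPKM (reads per kilobase of gene, scaled to the depth of the library) against 5994 to 12439. Tumor monocyte library 2 stood at 17.8% on the epithelial scale, against 1.15% to 3.04% in the others, and the blood libraries of both cell types stood below 0.3%. In tumor stromal cells the 10 fibroblast markers summed to 10.0 to 28.3 RPKM, against 430.4 to 2126 RPKM in healthy colon stromal cells, so fibroblast transcripts were nearly absent from this sort. Tumor stromal libraries 1 and 2 also held epithelial markers at 93.9% and 45.1% and endothelial markers at 4.91 and 4.13 RPKM, against 19.9% and 12.2% and 131 and 140.4 RPKM in libraries 3 and 4. Healthy colon epithelial library 4, with 83.9% mitochondrial counts, had the lowest RPKM of its group for 8 of the 9 members, all but Tgfbi. Monocyte markers summed to 244 to 371 RPKM in tumor monocytes against 552 to 747 RPKM in blood monocytes of tumor-bearing mice, and macrophage markers to 97.2 to 144 RPKM against 79.2 to 223 RPKM. T cell markers stayed at or below 12.4 RPKM in tumor sorts, and erythroid markers reached 129.6 RPKM in tumor neutrophils, 2.61 RPKM in tumor monocytes, 73.5 RPKM in tumor epithelial cells and 4521 RPKM in tumor stromal cells. In bulk RNA of this kind, fewer cells of a type and less RNA per cell cannot be told apart.

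The 9 members differed in where they were highest (RPKM, mean of 4 libraries). Skil, Thbs1, Tgfbi and Bhlhe40 were highest in tumor monocytes, Tgif1 in tumor neutrophils, Smad7 in tumor epithelial cells, and Pmepa1, Angptl4 and Ski in healthy colon stromal cells. The span from the lowest to the highest group mean was widest for Pmepa1, at 1606 times, and was 360.0 times for Tgfbi, 145 times for Tgif1, 109.9 times for Thbs1 and 92.5 times for Bhlhe40, against 55.3 times for Angptl4, 10.1 times for Skil, 8.12 times for Smad7 and 7.36 times for Ski. Most neighbors in these orders were not separated: of the 9 steps between neighboring groups, the libraries did not overlap at 3 steps for Tgfbi and Tgif1, 2 for Pmepa1, 1 for Smad7, Skil, Thbs1, Ski and Bhlhe40, and 0 for Angptl4. The highest step was one of the separated ones for Thbs1, Tgfbi, Pmepa1, Tgif1 and Ski. Separated steps were not counted over all genes, so these counts are a description. When the levels were rescaled by TMM over all 40 libraries, with factors of 0.619 to 4.40, tumor neutrophils became the highest group for Skil (27.2 ± 7.21 against 25.9 ± 5.25 in tumor monocytes, SD, n = 4) and for Ski (12.1 ± 6.76 against 11.6 ± 3.35 in healthy colon stromal cells), and the other 7 members kept their highest group.

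**Figure D1:**
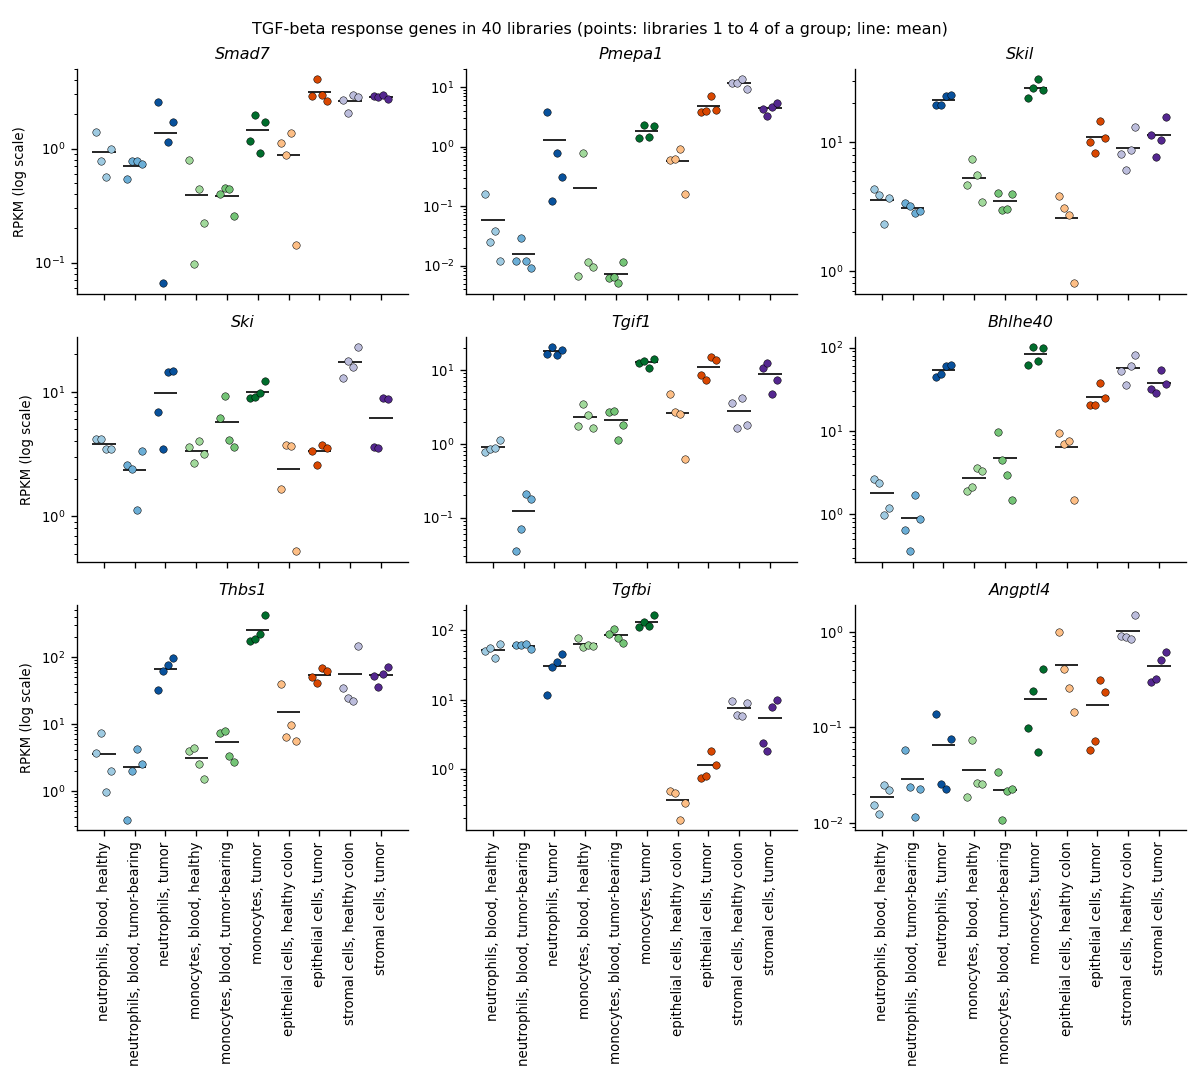
RPKM of the 9 TGF-beta response genes (1 panel per gene, log scale) in the 4 libraries of each of 10 groups, with a line at the group mean. Tgif1 lay between 16 and 20.4 in tumor neutrophils and between 0.0347 and 0.208 in the blood neutrophils of the same model, while Ski and Pmepa1 were highest in healthy colon stromal cells.

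The first question was whether neutrophils in the tumor carried more of these transcripts than neutrophils in the blood of tumor-bearing mice. Tgif1, Bhlhe40, Pmepa1, Thbs1, Skil and Ski rose, by edgeR's quasi-likelihood test with Benjamini-Hochberg adjustment over all 13674 genes tested, and Smad7 and Tgfbi did not pass. Angptl4 was too low to be tested. Of all genes tested, 12.5% passed with a higher level in the tumor, against 6 of the 8 members tested, and 5.39% passed with a lower one, against 0 members. The median log2 fold change was 3.90 over those members and 0.11 over all genes. All 6 also exceeded the study's fold threshold, an absolute log2 fold change above 1.5, which 11.9% of genes did upwards. Pmepa1 entered the test through its tumor libraries, since the 4 blood libraries held 3 to 9 counts.

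Among the co-repressors, Tgif1 stood at 16.5, 20.4, 16 and 18.4 RPKM in tumor neutrophil libraries 1 to 4 and at 0.0347, 0.0694, 0.208 and 0.178 RPKM in blood. The groups were thus far apart, with every tumor library at least an order of magnitude above every blood library, and the log2 fold change was 7.27 ± 0.72 (SE, adjusted p = 5.0e-04), or 155-fold. Skil measured 19.3, 19.3, 22.8 and 23.2 RPKM in the tumor and 3.34, 3.16, 2.83 and 2.92 RPKM in blood, a tight difference with a log2 fold change of 2.87 ± 0.33 (adjusted p = 6.3e-04). Ski was less even: tumor libraries held 6.94, 3.45, 14.4 and 14.6 RPKM against 2.57, 2.41, 1.12 and 3.37 RPKM in blood. Tumor library 2 lay just above the highest blood library, and the log2 fold change of Ski was 2.04 ± 0.46 (adjusted p = 0.0120).

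Bhlhe40, the transcriptional repressor, had 44.5, 48.1, 60.7 and 60.9 RPKM in tumor neutrophils and 0.649, 0.359, 1.71 and 0.876 RPKM in blood neutrophils (log2 fold change 5.94 ± 0.60, adjusted p = 5.1e-04). Thbs1, the matrix protein, had 32.4, 60.8, 75.3 and 95.3 RPKM against 0.371, 1.97, 4.21 and 2.50 RPKM (4.92 ± 0.77, adjusted p = 0.00202). Neither gene overlapped between tumor and blood. Platelets carry Thbs1 protein, and the 8 platelet markers summed to 0.556 to 2.25 RPKM in tumor neutrophils and 2.59 to 41.5 RPKM in the blood neutrophils (their part in the Thbs1 level was not tested).

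The inhibitors of the pathway behaved differently from one library to the next. Pmepa1 measured 3.86, 0.120, 0.791 and 0.307 RPKM in tumor neutrophils, or 1045, 35, 242 and 95 counts, and 0.0120, 0.0296, 0.0121 and 0.00900 RPKM in blood. The single highest value was in library 1, the one rich in epithelial markers. The log2 fold change was 6.07 ± 1.06 (adjusted p = 0.00346), and 4.69 (adjusted p = 0.00556) without that library. Smad7 stood at 2.58, 0.0657, 1.14 and 1.70 RPKM against 0.537, 0.772, 0.777 and 0.738 RPKM, with library 2 below all blood libraries and the other 3 above them. Its log2 fold change of 0.78 ± 0.70 did not pass (adjusted p = 0.482), and it passed only without library 2 (1.12, adjusted p = 0.0335).

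Tgfbi went the other way in level. It measured 11.6, 29.5, 35.2 and 45.6 RPKM in tumor neutrophils and 61.3, 62.1, 63.0 and 54.5 RPKM in blood, with no overlap (2-sided exact permutation test on RPKM, p = 0.0286, the smallest that 4 against 4 libraries allow). In the fit across all genes its log2 fold change of -0.87 ± 0.45 did not pass (adjusted p = 0.210). Angptl4 was near the floor of detection, with 5 to 25 counts in each tumor and 2 to 15 in each blood neutrophil library, and a ratio of counts of 1.61 (exact interval 0.994 to 2.68, counting error only).

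**Figure D2:**
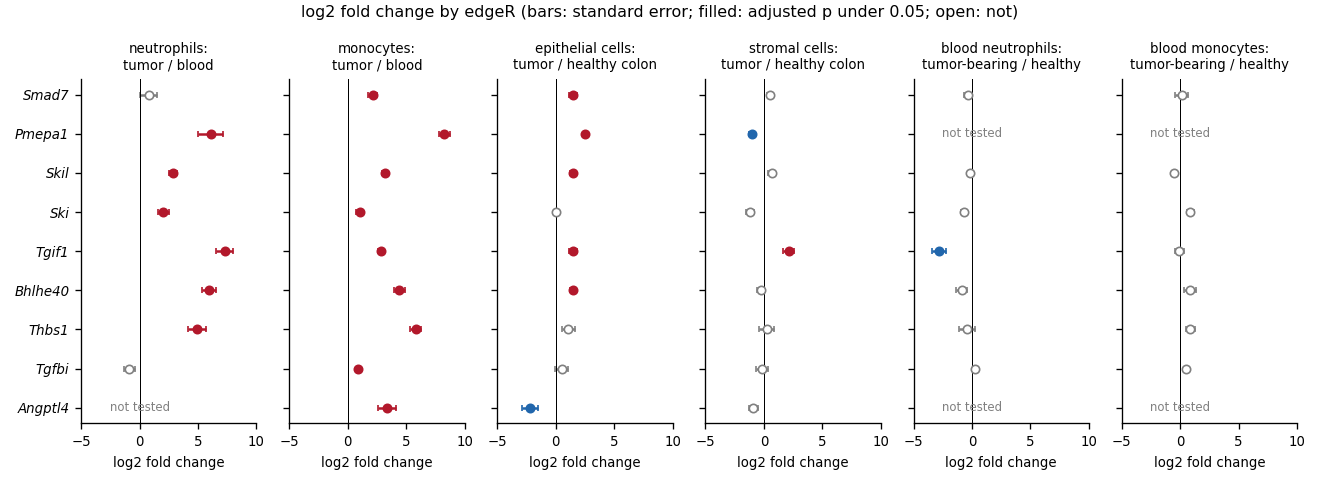
Log2 fold change with its standard error (edgeR) for the 9 members in 6 comparisons, with filled symbols for an adjusted p under 0.05 and open symbols otherwise. Filled symbols stand on the higher side for 6 members in neutrophils and 9 in monocytes, and in blood the only filled one is Tgif1 in neutrophils, at -2.83.

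Monocytes of the tumor, compared with monocytes in the blood of tumor-bearing mice, were higher for every member. All 9 were tested and all 9 rose, while 10.9% of the 15280 genes tested rose and 6.28% fell. The median log2 fold change was 3.17 over the members and -0.03 over all genes. The study's fold threshold was exceeded by 7 of them, against 7.76% of all genes upwards. The 2 below it were Tgfbi and Ski. With a replicate block, as in the fit on log2(RPKM + 1), 6 of the 9 passed, without Tgfbi, Angptl4 and Ski. Of the 9, Pmepa1 and Angptl4 entered the test through their tumor libraries.

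Pmepa1 was close to absent from blood monocytes, at 2, 2, 1 and 3 counts, and had 356, 845, 411 and 796 counts in tumor monocytes, or 1.39, 2.31, 1.47 and 2.26 RPKM. Per total count the ratio was 264 (exact interval 134 to 612, counting error only), and the fitted log2 fold change of 8.28 ± 0.48 (adjusted p = 5.4e-06) depends on the prior count added to so few blood reads. Smad7, the other inhibitor, measured 1.17, 1.97, 0.911 and 1.73 RPKM against 0.401, 0.453, 0.441 and 0.256 RPKM (log2 fold change 2.13 ± 0.36, adjusted p = 0.00257). Unlike in neutrophils, every tumor library was above every blood library for this gene.

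Skil had 22.1, 26.1, 30.9 and 25.6 RPKM in tumor monocytes and 4.04, 2.98, 3.03 and 3.94 RPKM in blood monocytes (3.17 ± 0.21, adjusted p = 9.0e-06). Tgif1 had 12.6, 13.1, 10.7 and 14.2 RPKM against 2.73, 2.77, 1.11 and 1.78 RPKM (2.85 ± 0.29, adjusted p = 1.2e-04). Both co-repressors were clearly separated, whereas Ski was not: 8.87, 9.15, 9.78 and 12.2 RPKM in the tumor stood against 6.15, 9.17, 4.09 and 3.58 RPKM in blood, so blood library 2 reached the tumor range. The log2 fold change of Ski was 1.05 ± 0.30 (adjusted p = 0.0341), and the call was lost in 7 of the 8 fits that left out 1 library (adjusted p = 0.0520 to 0.0971), every one but that without blood monocyte library 2.

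Thbs1 was the most abundant member of all, with 175, 182, 219 and 417 RPKM in tumor monocytes against 7.36, 7.75, 3.28 and 2.69 RPKM in blood (5.81 ± 0.47, adjusted p = 2.6e-05). Bhlhe40 had 61.4, 101, 69.7 and 99.9 RPKM against 9.79, 4.53, 2.99 and 1.48 RPKM (4.42 ± 0.50, adjusted p = 2.6e-04). Blood monocyte library 1 was the highest of its group for Bhlhe40 and still far below the tumor libraries. Tgfbi was already high in blood monocytes, at 89.2, 105, 78.4 and 66.3 RPKM, and reached 112, 130.3, 115 and 165 RPKM in the tumor, a small step (0.87 ± 0.19, adjusted p = 0.0118). The Tgfbi call was lost with the replicate block (adjusted p = 0.0551), in both fits on log2 RPKM (adjusted p = 0.0866 and 0.108) and with all 40 libraries in 1 model (adjusted p = 0.196). Angptl4 rose from 18 counts over 4 blood libraries to 181 over 4 tumor libraries, at 0.0994, 0.238, 0.0551 and 0.406 RPKM in the tumor (3.36 ± 0.79, adjusted p = 0.0151), and lost its call without blood library 3 or 4 (adjusted p = 0.0517 in both).

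The change from blood to tumor was compared directly between the 2 myeloid cell types in 1 model of 16 libraries with an interaction term. Tgif1 was the only one of the 9 members that passed, against 2.74% of 17466 genes with a larger change in neutrophils, and its log2 fold change was 4.31 ± 0.68 larger in neutrophils than in monocytes (adjusted p = 0.00228). Its tumor levels were near each other, 17.8 ± 1.97 RPKM in neutrophils and 12.7 ± 1.46 RPKM in monocytes, while its blood levels were 0.123 ± 0.0836 and 2.10 ± 0.801 RPKM, so the difference lay mainly in blood. Tgfbi, lower in tumor neutrophils and higher in tumor monocytes, did not pass (adjusted p = 0.0520). Without tumor neutrophil library 1, the difference passed for Tgfbi (-1.52, adjusted p = 0.00529) and for Pmepa1 (-3.65, adjusted p = 0.0274), both smaller in neutrophils, and it passed for Tgfbi also without tumor neutrophil library 2 (adjusted p = 0.0298) or 4 (adjusted p = 0.0447).

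**Figure D3:**
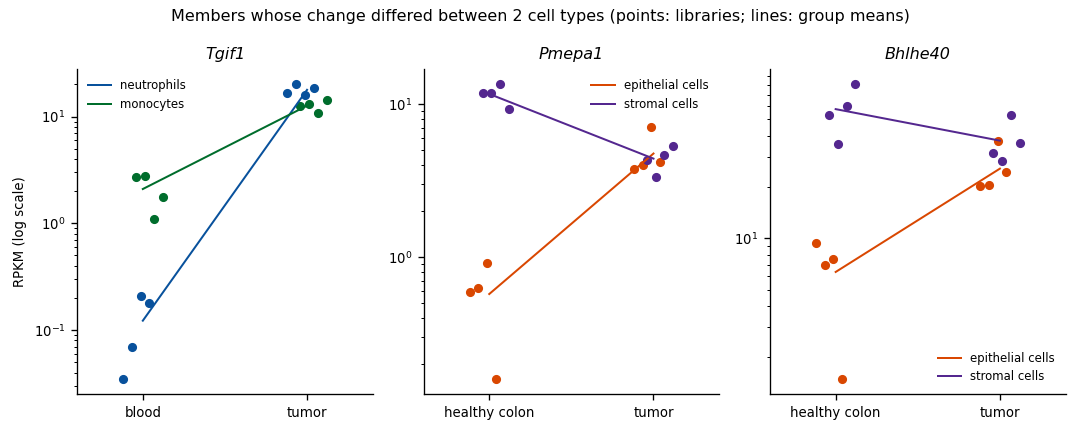
RPKM (log scale) in each library of Tgif1 in neutrophils and monocytes from blood and tumor, and of Pmepa1 and Bhlhe40 in epithelial and stromal cells from healthy colon and tumor, with lines joining group means. The Tgif1 lines start far apart in blood and end near each other in the tumor, and the Pmepa1 lines cross from opposite sides to 4.76 RPKM in epithelial and 4.41 RPKM in stromal cells of the tumor.

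Epithelial markers were higher in the tumor sorts, and an epithelial share was therefore taken off each level, as the epithelial marker level of the library multiplied by what the 4 tumor epithelial libraries held on average. Other markers were higher in tumor than in blood neutrophils as well: macrophage markers summed to 33.1 to 42.2 RPKM against 17.5 to 25.7 RPKM (3 of 6 tested rose), fibroblast markers to 2.48 to 5.57 RPKM against 0.339 to 1.02 RPKM (4 of 8 rose) and endothelial markers to 0.435 to 5.38 RPKM against 0.628 to 1.32 RPKM (1 of 5 rose, Cdh5). Their part in the members' levels was not tested. In tumor neutrophils, Tgif1 then kept 14.6 ± 5.06 RPKM (SD, n = 4), Skil 18 ± 5.30 RPKM and Bhlhe40 46.2 ± 16 RPKM, and all 4 libraries of each stayed above every blood library. Pmepa1 went from 1.27 ± 1.75 RPKM to -0.0975 ± 0.265 RPKM, and 2 of 4 libraries stayed above the highest blood value. For Thbs1, library 1 came out at -10.8 RPKM and the other 3 at 53.9, 65.7 and 92.6 RPKM, and for Ski 3 of 4 libraries remained above blood. In tumor monocytes the same subtraction moved little: Pmepa1 went from 1.86 ± 0.494 to 1.57 ± 0.369 RPKM, and the number of libraries above all blood libraries was unchanged for each of the 9 members. Without tumor neutrophil library 1, the fitted log2 fold changes were 7.43 for Tgif1, 6.11 for Bhlhe40, 5.21 for Thbs1, 3.02 for Skil and 2.24 for Ski, and all 5 still passed.

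**Figure D4:**
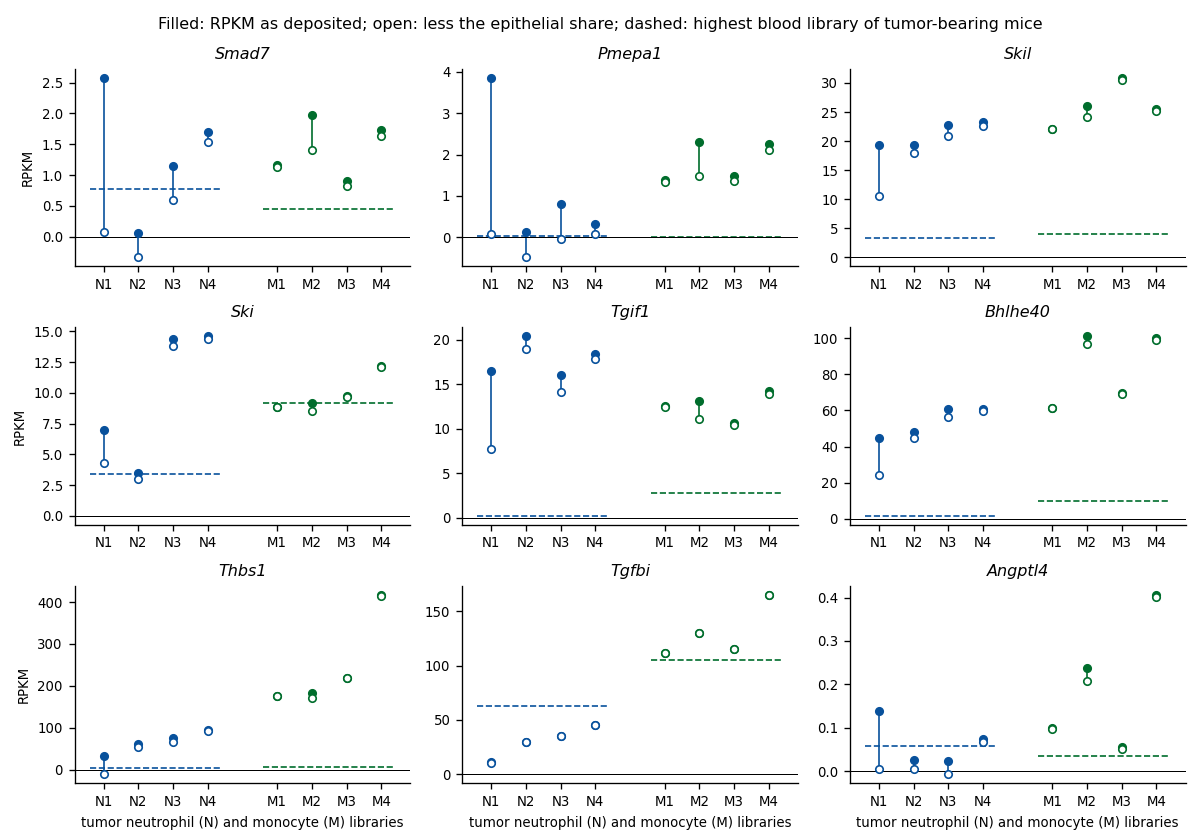
RPKM of the members in tumor neutrophil (N1 to N4) and tumor monocyte (M1 to M4) libraries as deposited (filled) and less the epithelial share (open), with a dashed line at the highest blood library of tumor-bearing mice. The drop is longest in N1, where Thbs1 ends at -10.8 RPKM, and among monocytes it is longest in M2, where Pmepa1 goes from 2.31 to 1.47 RPKM.

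Other programs moved in the same libraries. The 14 hypoxia response genes summed to 130.0 to 192 RPKM in tumor neutrophils against 25.8 to 39.8 RPKM in blood neutrophils, and to 124 to 220.4 RPKM in tumor monocytes against 13.9 to 16.1 RPKM in blood monocytes. In neutrophils 9 of the 12 tested members of that list rose, where 12.5% of all genes did, among them Hilpda (log2 fold change 7.29 ± 0.88, adjusted p = 7.7e-04). Hilpda was near the floor in blood neutrophils, at 0.00760 to 0.163 RPKM, so the size of its change is uncertain. In monocytes 9 of 13 rose, where 10.9% of all genes did, among them Slc2a1 (4.30 ± 0.33, adjusted p = 2.2e-05). The 15 genes known to be induced by tissue dissociation summed to 748 to 2081 RPKM in tumor and 451 to 868 RPKM in blood neutrophils, and to 569 to 1018 RPKM and 159 to 552 RPKM in monocytes. Of these 15, 8 rose in neutrophils and 9 in monocytes, and none fell, against the same shares of all genes. Their part in the levels of Bhlhe40, Thbs1 and the other members was not tested.

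The choice of blood reference mattered for some members, and both references share the same tumor libraries. Against the blood of healthy mice, Tgif1 in tumor neutrophils was higher by 4.42 on the log2 scale (adjusted p = 3.9e-04), Bhlhe40 by 5.03 (adjusted p = 2.9e-04), Pmepa1 by 4.21 (adjusted p = 0.0275) and Ski by 1.34 (adjusted p = 0.0380). In monocytes, Thbs1 was then higher by 6.68 (adjusted p = 1.2e-05), Ski by 1.92 (adjusted p = 1.2e-04) and Bhlhe40 by 5.23 (adjusted p = 6.9e-06), while Pmepa1 no longer passed (3.50, adjusted p = 0.0983). The Pmepa1 value rests on healthy blood monocyte library 2, which held 191 counts against 2 to 4 in the other 3 libraries.

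In blood itself, few members differed between tumor-bearing and healthy mice. Blood neutrophils of tumor-bearing mice had less Tgif1, with 0.0347, 0.0694, 0.208 and 0.178 RPKM against 0.766, 0.861, 0.864 and 1.13 RPKM in healthy mice. The 2 groups did not overlap, and the log2 fold change was -2.83 ± 0.56 (adjusted p = 0.0164), with the call lost without healthy library 3 (adjusted p = 0.0510) or tumor-bearing library 2 (adjusted p = 0.0556). It was the only one of 7 tested members that passed, and 2.93% of 13361 genes fell. In blood monocytes, edgeR called 0 of the 7 tested members, with 2 at an unadjusted p under 0.05, and limma-voom and DESeq2 also called 0, in a comparison where 0.216% of 15313 genes passed in either direction.

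In epithelial cells, the tumor was compared with healthy colon. Pmepa1, Tgif1, Smad7, Skil and Bhlhe40 rose and Angptl4 fell, and Thbs1, Tgfbi and Ski did not pass. With 9 members tested, 5 were higher against 10.6% of the 16085 genes, and 1 was lower against 12.0%, with a median log2 fold change of 1.45 over the members and -0.01 over all genes. The changes were moderate, and the study's fold threshold was exceeded by 2 members, Pmepa1 and Angptl4, against 15.4% of all genes in either direction.

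Both inhibitors of the pathway were higher in tumor epithelium. Pmepa1 stood at 3.78, 4.01, 7.08 and 4.19 RPKM in the tumor and 0.586, 0.627, 0.914 and 0.158 RPKM in healthy colon, a log2 fold change of 2.50 ± 0.20 (adjusted p = 3.6e-05). Smad7 had 2.90, 4.09, 2.98 and 2.63 RPKM against 1.13, 0.874, 1.37 and 0.142 RPKM (1.46 ± 0.33, adjusted p = 0.00948). The lowest healthy value of each was in library 4, the one with 83.9% mitochondrial counts. The co-repressor Skil had 10.0, 8.22, 14.7 and 10.7 RPKM against 3.80, 3.05, 2.69 and 0.798 RPKM (1.45 ± 0.23, adjusted p = 0.00117). Tgif1 had 8.67, 7.31, 14.8 and 13.5 RPKM against 4.68, 2.66, 2.53 and 0.628 RPKM (1.47 ± 0.31, adjusted p = 0.00654). Neither overlapped between the groups, in contrast to Ski, which had 3.37, 2.59, 3.77 and 3.56 RPKM against 1.65, 3.72, 3.68 and 0.522 RPKM (0.04, adjusted p = 0.910). Bhlhe40 rose from 9.40, 6.98, 7.54 and 1.49 RPKM to 20.4, 20.7, 37.1 and 24.6 RPKM (1.45 ± 0.22, adjusted p = 0.00111).

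The secreted members were less uniform in the epithelium. Thbs1 had 49.2, 40.1, 67.5 and 60.7 RPKM in the tumor and 38.7, 6.27, 9.50 and 5.55 RPKM in healthy colon, with no overlap in RPKM (exact permutation test, p = 0.0286). After the TMM rescaling over all 40 libraries the groups overlapped, at 38.8 to 50.5 in the tumor and 5.78 to 48.4 in healthy colon. The log2 fold change of 1.07 ± 0.56 did not pass (adjusted p = 0.209), and it was 1.82 (adjusted p = 0.0207) without healthy library 1, the one with 38.7 RPKM. With that library kept, Thbs1 passed under limma-voom (1.71, adjusted p = 0.0260) and in both fits on log2 RPKM (adjusted p = 0.0241 and 0.0110). Angptl4 had 0.0572, 0.0711, 0.314 and 0.236 RPKM against 0.989, 0.406, 0.258 and 0.144 RPKM (-2.20 ± 0.65, adjusted p = 0.0334). The groups overlapped, and the call was lost without healthy library 1 (-1.61, adjusted p = 0.0917) or 4 (adjusted p = 0.0563), or without tumor library 1 (adjusted p = 0.0905), 2 (adjusted p = 0.0819) or 4 (adjusted p = 0.0570). Angptl4 is a known PPAR target, and 3 of the 6 PPAR target genes tested also fell, against 12.0% of all genes, and none rose. Among them was Cpt1a, which carries fatty acids into mitochondria (-1.99 ± 0.21, adjusted p = 1.1e-04). Whether PPAR had a part in the Angptl4 level was not tested. Tgfbi stayed low, at 0.742 to 1.83 RPKM in the tumor and 0.187 to 0.481 RPKM in healthy colon, without overlap. After the same rescaling it did overlap, at 0.709 to 1.23 in the tumor and 0.165 to 1.45 in healthy colon. Its log2 fold change of 0.50 did not pass (adjusted p = 0.591, and 1.27 with adjusted p = 0.0821 without healthy library 4).

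Stromal cells gave another picture. Tgif1 rose, Pmepa1 fell and the other 7 members did not pass, when 4.01% of 19082 genes rose and 5.55% fell. The median log2 fold change was -0.15 over the members and 0.03 over all genes. Only Tgif1 exceeded the study's fold threshold, against 8.41% of all genes in either direction. Tgif1 measured 10.8, 12.6, 4.66 and 7.33 RPKM in the tumor and 3.52, 1.64, 4.23 and 1.80 RPKM in healthy colon, a log2 fold change of 2.11 ± 0.45 (adjusted p = 0.0230). The call was lost without healthy library 1 (adjusted p = 0.0623) or 2 (adjusted p = 0.0783), and in tumor libraries 3 and 4 alone (1.41, adjusted p = 0.0924), the pair with the lower epithelial markers. Pmepa1 was 4.32, 3.32, 4.69 and 5.32 RPKM in the tumor and 11.9, 11.9, 13.7 and 9.36 RPKM in healthy stroma, which is the highest group for this gene (-1.05 ± 0.21, adjusted p = 0.0177). It did not overlap, and its call was lost without tumor library 1 (adjusted p = 0.0523) or 2 (adjusted p = 0.0578).

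Ski, Tgfbi and Angptl4 were lower in tumor stromal libraries 1 and 2 than in libraries 3 and 4. Neutrophil markers summed to 48.4, 11.7, 1571 and 531 RPKM in the same 4 libraries (3 of 8 rose against healthy stroma), and their part in these values was not tested. Ski had 3.61, 3.51, 8.94 and 8.73 RPKM in the tumor and 13, 17.8, 15.9 and 22.8 RPKM in healthy stroma, without overlap (exact permutation test, p = 0.0286). The fitted log2 fold change was -1.18 ± 0.37 (adjusted p = 0.0797), and -1.87 (adjusted p = 0.00876) in tumor libraries 1 and 2 alone, and Ski also passed under DESeq2 (-1.16, adjusted p = 0.0281). Tgfbi had 2.41, 1.81, 7.95 and 9.95 RPKM against 9.57, 5.97, 5.85 and 8.95 RPKM (-0.15, adjusted p = 0.887), and libraries 1 and 2 alone gave -1.43 (adjusted p = 0.0166) where libraries 3 and 4 alone gave 0.53 (adjusted p = 0.352). Thbs1 in healthy stroma was 33.7, 24.3, 21.9 and 143 RPKM and in the tumor 51.5, 35.1, 54.6 and 69.6 RPKM. With the outlying healthy library 4 left out, its log2 fold change moved from 0.24 (adjusted p = 0.854) to 1.35 (adjusted p = 0.0268). Angptl4 had 0.296 to 0.622 RPKM in the tumor and 0.837 to 1.49 RPKM in healthy stroma without overlap (-0.90, adjusted p = 0.173), and Smad7, Skil and Bhlhe40 overlapped. Since fibroblast markers fell in 8 of 10 cases, among them Col3a1 (-4.70 ± 0.55, adjusted p = 0.00473), a change of the stromal members and a change of the cells in the sort cannot be told apart.

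Whether the step from healthy colon to tumor differed between epithelial and stromal cells was tested as an interaction over 16 libraries. Pmepa1 differed by 3.56 ± 0.26 (adjusted p = 9.2e-06) and Bhlhe40 by 1.72 ± 0.38 (adjusted p = 0.00640), both on the log2 scale and both more upward in epithelial cells. These were 2 of 9 members, against 7.20% of 20902 genes with a more upward change in epithelial cells, and the other 7 did not pass, although Ski did without tumor stromal library 3 (1.43, adjusted p = 0.0390) or 4 (1.44, adjusted p = 0.0342). For Pmepa1 the 2 changes pointed in opposite directions, and every tumor library was above every healthy library in the epithelium and below in the stroma. Bhlhe40 in healthy stroma, at 52.8, 35.9, 60.0 and 81.2 RPKM, was well above the 1.49 to 9.40 RPKM of healthy epithelium, and its 31.9, 28.6, 53.1 and 36.5 RPKM in tumor stroma overlapped the healthy stromal range (-0.27, adjusted p = 0.630).

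The 4 cell types of the tumor were then compared with one another in 1 model of 16 libraries and 19026 genes, so that the 6 contrasts share libraries. Neutrophils were higher than epithelial cells for 6 of 9 members (19.6% of genes), Skil, Thbs1, Tgfbi, Tgif1, Ski and Bhlhe40, and higher than stromal cells for the same 6 (14.0% of genes). Monocytes were higher than epithelial cells for 5 members (16.4% of genes) and higher than stromal cells for 4 (8.98% of genes). With the number in the title as a block, none of the 6 members passed between neutrophils and stromal cells (adjusted p = 0.0719 to 0.685), where edgeR then called 0 of all genes, and of the monocyte contrasts with stromal cells Skil (adjusted p = 0.196), Thbs1 (adjusted p = 0.129) and Bhlhe40 (adjusted p = 0.299) were lost. Stromal libraries share only title number T1 with neutrophils and only T17 with monocytes, so this block leaves little information on these contrasts. Thbs1 in neutrophils lost its calls against epithelial and stromal cells under limma-voom (adjusted p = 0.0736 and 0.0741) and in the fit on log2(RPKM + 1), where its differences were 0.20 and 0.26. Without the block, Skil, Thbs1, Tgfbi and Bhlhe40 passed in both monocyte contrasts, and Ski passed against epithelial cells (1.79 ± 0.42, adjusted p = 0.00477). The largest contrast was in Tgfbi, which was higher than in epithelial cells by 7.11 ± 0.67 in monocytes (adjusted p = 6.0e-06) and by 5.77 ± 0.63 in neutrophils (adjusted p = 1.2e-05). It was also the only member lower in epithelial than in stromal cells (-2.27 ± 0.54, adjusted p = 0.0231, 4.10% of genes), a call that was lost when any of the 4 epithelial libraries or stromal library 3 or 4 was left out (adjusted p = 0.0547 to 0.101).

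Between the myeloid cells of the tumor, Tgif1 was higher in neutrophils (1.19 ± 0.35, adjusted p = 0.0296, 10.9% of genes), and this was lost without tumor neutrophil library 2 (0.64, adjusted p = 0.198) or 4 (adjusted p = 0.0546) and without any 1 of the 4 monocyte libraries (adjusted p = 0.0631 to 0.0767). The Thbs1 contrasts of neutrophils with epithelial cells (1.22 ± 0.40, adjusted p = 0.0338) and with stromal cells (1.31 ± 0.40, adjusted p = 0.0304) were also fragile. The first was 0.75 (adjusted p = 0.172) and the second 0.86 (adjusted p = 0.156) without tumor neutrophil library 2, and both were lost as well without library 3 or 4 (adjusted p = 0.0684 to 0.104), without stromal library 1 and, for the first, without any 1 epithelial library, and for the second without stromal library 2 or 3. Ski against stromal cells lost its call without tumor neutrophil library 3 (adjusted p = 0.0572) or 4 (adjusted p = 0.0557) or stromal library 1 (adjusted p = 0.0564). Without tumor neutrophil library 1, Pmepa1 was lower in tumor neutrophils than in epithelial cells (-2.58, adjusted p = 5.2e-04), stromal cells (-2.44, adjusted p = 0.00120) and monocytes (-1.44, adjusted p = 0.0326), where it did not pass with all 16 libraries. Thbs1 was lower in neutrophils than in monocytes without neutrophil library 1 (-0.88, adjusted p = 0.0447) or 2 (-1.59, adjusted p = 0.0230), and without neutrophil library 2 monocytes had less Smad7 than epithelial cells (-1.04, adjusted p = 0.0107) and stromal cells (-0.82, adjusted p = 0.0434). Smad7, Pmepa1 and Angptl4 passed in none of the 6 contrasts with all libraries.

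The rest of the pathway was looked at through lists written by function. No epithelial share was taken off the genes of these lists, and its part in their neutrophil values was not tested. Of 22 other genes known to be induced by TGF-beta, 6 of 17 tested rose in tumor neutrophils (12.5% of all genes) and 7 of 17 in tumor monocytes (10.9% of all genes), and none fell. In neutrophils these included the cell cycle inhibitor Cdkn1a (7.16 ± 0.75, adjusted p = 5.6e-04) and the basement membrane collagen Col4a1 (4.64 ± 0.54, adjusted p = 6.3e-04). In monocytes they included the protease inhibitor Timp1 (7.96 ± 0.69, adjusted p = 4.3e-05) and again Cdkn1a (4.42 ± 0.42, adjusted p = 8.1e-05). Tumor epithelial cells had 6 of 19 higher (10.6% of all genes) and 0 lower, among them Timp1 (4.79 ± 0.78, adjusted p = 0.00148) and Zfp36l1 (2.28 ± 0.37, adjusted p = 0.00144), and in stromal cells 1 of 22 rose and 1 fell (4.01% and 5.55% of all genes). Timp1 was near the floor in both references, at 1.6e-04 to 0.0601 RPKM in blood monocytes and 3.1e-04 to 0.0424 RPKM in healthy epithelium. The size of its changes is therefore uncertain. The medians of this list, 1.86 in neutrophils, 0.69 in monocytes, 0.89 in epithelial cells and -0.57 in stromal cells, were lower than those of the members in all 4 comparisons. Since members and list were chosen with earlier results of these data known, this order is a description.

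Among ligands and genes of TGF-beta activation, 3 of 10 tested rose in neutrophils, 3 of 11 in monocytes and 6 of 11 in epithelial cells, against 12.5%, 10.9% and 10.6% of all genes, and 3 of 12 fell in stromal cells, against 5.55%. Itgav, the integrin chain that releases latent TGF-beta, rose in neutrophils (1.11 ± 0.31, adjusted p = 0.0307), in monocytes (0.93 ± 0.22, adjusted p = 0.0162) and in epithelial cells (1.56 ± 0.21, adjusted p = 5.5e-04). Tgfb2 in the epithelium went from 0.0111 ± 0.0101 to 2.14 ± 0.319 RPKM (SD, n = 4, log2 fold change 7.14 ± 0.60, adjusted p = 4.1e-05). Healthy libraries held 7.1e-04 to 0.0242 RPKM of it, near the floor, so it entered the test through its tumor libraries and the size of its change is uncertain. The latency protein gene Ltbp3, at 0.0101 to 0.106 RPKM in healthy colon, rose too (4.27 ± 0.52, adjusted p = 2.9e-04). In stromal cells Ltbp4 (-3.42 ± 0.64, adjusted p = 0.0144), Tgfb3 (-2.60 ± 0.56, adjusted p = 0.0242) and Ltbp3 (-2.03 ± 0.44, adjusted p = 0.0249) fell. Tgfb1 was highest in monocytes, at 18.1 ± 6.50 RPKM in the tumor and 14.4 ± 7.89 RPKM in the blood of tumor-bearing mice, and stood at 1.98 ± 1.25 RPKM in tumor neutrophils.

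Few receptors and SMADs passed, and counts this small were near the shares of all genes. Of 9 such genes, 0 of 9 passed in neutrophils by edgeR, where 12.5% of all genes rose and 5.39% fell. In epithelial cells it was 0 of 8 (10.6% and 12.0% of all genes). In monocytes 2 rose and 1 fell (10.9% and 6.28% of all genes), and in stromal cells 1 fell (5.55% of all genes). The monocyte genes were the type I receptor Tgfbr1 (0.93 ± 0.23, adjusted p = 0.0201) and its signal carrier Smad3 (1.06 ± 0.30, adjusted p = 0.0341), which rose, and the SMAD anchor Zfyve9 (-1.04 ± 0.24, adjusted p = 0.0144), which fell. The stromal gene was the co-receptor Tgfbr3 (-3.40 ± 0.77, adjusted p = 0.0280), and the median of the list in stromal cells was -0.63. The type II receptor gene Tgfbr2, which did not pass there, measured 2.52 to 17.9 RPKM in tumor and 29.1 to 48.8 RPKM in healthy stroma. In blood neutrophils the type I receptor gene Acvrl1 was higher in tumor-bearing than in healthy mice (4.62 ± 0.70, adjusted p = 0.00581). It was the 1 of 9 genes of this list that passed, where 480 of 13361 genes rose. Healthy blood neutrophils held 0.0148 to 0.0923 RPKM of it, near the floor, so the size of its change is uncertain. Targets of the related BMP pathway were higher as well: 3 of 4 tested rose in neutrophils, 4 of 6 in monocytes and 5 of 7 in epithelial cells, against 12.5%, 10.9% and 10.6% of all genes. Among them was Id3 in all 3 (6.23 ± 0.77, adjusted p = 7.7e-04, in neutrophils, 3.29 ± 0.88, adjusted p = 0.0274, in monocytes and 1.51 ± 0.26, adjusted p = 0.00220, in epithelial cells). Id3 stood at 2.52 ± 1.95 RPKM in tumor neutrophils, 0.0235 to 0.0453 RPKM in blood neutrophils and 14.7 ± 3.97 RPKM in tumor epithelial cells. The part of epithelial RNA in its neutrophil value was not tested. Both Id3 and Hes1 (0.0309 to 0.255 RPKM) were near the floor in blood neutrophils, so they entered that test through their tumor libraries. The 3 of 4 in neutrophils is therefore a description, and the size of their changes is uncertain.

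Across the 10 group means, on a scale of log2(RPKM + 1), the members resembled one another only in part: over their 36 pairs Pearson's r ranged from -0.58 to 0.97 with a median of 0.58, and 30 pairs were positive. Groups share the depth and composition of their libraries, so r is a description. Among 4890 or 4891 genes with a mean of at least 5 RPKM in some group, the gene most like Bhlhe40 was the member Thbs1 (r = 0.972) and the reverse, and the lincRNA gene Gm29233 that overlaps Thbs1 came next for Thbs1 (0.971). The closest genes were Plk2 for Smad7 (0.975), Gem for Pmepa1 (0.978), Ptpn2 for Skil (0.958), Ccl2 for Ski (0.964), Etf1 for Tgif1 (0.967), Trps1 for Tgfbi (0.983) and Il1r1 for Angptl4 (0.981). Over the 40 single libraries these values were lower, from 0.68 for Ski and Ccl2 to 0.97 for Tgfbi and Trps1.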

How the data were processed

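RNA of sorted cells was sequenced in 40 libraries, 24 from tumor-bearing and 16 from healthy mice. The authors aligned reads to mm10 with Bowtie2 and deposited, per gene and library, expected counts and RPKM. Expected counts are estimates (99.6% of nonzero values were not whole) and were rounded, which changed no library total by more than 1075. The deposited RPKM were used as given. Groups came from the labels. Genes were kept by filterByExpr, scaled by TMM and tested with edgeR 4.0.16 (robust quasi-likelihood, R 4.3.3) with Benjamini-Hochberg adjustment over all genes tested. A gene passed at an adjusted p under 0.05. Single members were also tested by a 2-sided exact permutation test on RPKM (70 arrangements). Counting intervals are exact at 95% and cover counting error only. Genes named beside the members are at most the 3 passed with the smallest p per list. Some genes of these lists are not reported here by name. Members and lists were chosen with earlier results of these data known. The model was tested on simulated data. Alternatives were limma 3.58.1, DESeq2 1.42.0, other filters and scalings, a replicate block, within the tumor a block by title number, and leaving out each library.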

Additional observations from a re-analysis of the deposited data

Results flagged for a closer look

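In 8 of the 90 sets of 4 libraries, 1 per member and group, the highest or lowest library lay farther from the others than Dixon's 95% critical value allows, and chance alone gives about 1 in 20. Thbs1 was the highest in library 1 of healthy colon epithelial cells (38.7 RPKM, others 5.55 to 9.50) and in library 4 of healthy colon stromal cells (143 RPKM, others 21.9 to 33.7). Thbs1 passed in each of these tissue comparisons without that library, and in epithelial cells it also passed with it under limma-voom (1.71, adjusted p = 0.0260). Pmepa1 was the highest in library 2 of healthy blood monocytes (0.781 RPKM, others 0.00660 to 0.0117), in library 2 of blood neutrophils of tumor-bearing mice (0.0296 RPKM, others 0.00900 to 0.0121) and in library 3 of tumor epithelial cells (7.08 RPKM, others 3.78 to 4.19). Angptl4 was the highest in the same healthy blood monocyte library 2 (0.0736 RPKM, others 0.0187 to 0.0262) and in library 4 of healthy colon stromal cells (1.49 RPKM, others 0.837 to 0.897). Healthy blood monocyte library 2 held fibroblast markers at a median of 8.61% of their mean level in tumor stromal cells, against 0.208% to 0.262% in the other 3. Tumor stromal cells held few fibroblast transcripts, and healthy colon stromal cells stood at 1821% to 5136% on this scale. The part of fibroblast RNA in these values was not tested. Smad7 was the lowest in library 1 of blood neutrophils of tumor-bearing mice (0.537 RPKM, others 0.738 to 0.777).

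The change differed between cell types, by an interaction term in edgeR with adjustment over all genes, for 3 members. The step from blood to tumor was 4.31 larger on the log2 scale in neutrophils than in monocytes for Tgif1 (adjusted p = 0.00228). The step from healthy colon to tumor was more upward in epithelial than in stromal cells by 3.56 for Pmepa1 (adjusted p = 9.2e-06), which fell in stromal cells, and by 1.72 for Bhlhe40 (adjusted p = 0.00640). Fibroblast markers fell in the tumor stromal sort, so a change of these members there and a change of its cells cannot be told apart.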

How the results depend on the processing

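For all members tested in the 4 tumor comparisons, and elsewhere for members that had passed, 736 refits were made under another tool, filter, scaling or reference. Of these, 663 kept direction and side of the threshold, 63 lost the call, 9 gained it and 1 reversed, and of 704 refits that left out 1 library these were 646, 49, 3 and 6. The reversals among these refits were all of values that did not pass: Tgfbi in stromal cells became 0.53 in tumor libraries 3 and 4 alone and ranged from -0.60 to 0.12 when 1 library was left out (0.10 and 0.12 without tumor library 1 or 2), Thbs1 in stromal cells ranged from -0.07 to 1.35 (-0.03 and -0.07 without healthy library 2 or 3), and Ski in epithelial cells from -0.07 to 0.14 (-0.07 without healthy library 1 and -0.04 without tumor library 1). The number of members that passed moved by over 1.5 times in these cases. In epithelial cells it was 6, and 2 under the study's fold threshold. In stromal cells it was 2, and 1 with a replicate block, 1 under the fold threshold, 0 in tumor libraries 3 and 4 alone and 4 in libraries 1 and 2 alone. In the difference between neutrophils and monocytes it was 1, and 2 under limma-voom, DESeq2, a minimum of 10 counts in every library and both fits on log2 RPKM (pseudocounts 1 and 0.1). In the difference between epithelial and stromal cells it was 2, and 4 under both RPKM fits. Within the tumor it was 23 of 54, and 13 with the number in the title as a block. The cause was not tested. Leaving out 1 library gave 6 to 7 members in neutrophils, 7 to 9 in monocytes, 5 to 6 in epithelial cells, 1 to 3 in stromal cells, 0 to 1 in blood neutrophils, 0 in blood monocytes, 1 to 3 and 2 to 3 in the 2 differences and 19 to 29 within the tumor.

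Whether replicate numbers pair the libraries could not be decided, since correlations over so few pairs cannot show it. Deviations of libraries with the same replicate number correlated at -0.07 to 0.11 in neutrophils, -0.14 to -0.05 in monocytes, -0.05 to -0.01 in epithelial and -0.1 to 0.2 in stromal cells, and at -0.26 to 0.32 within the tumor. Between tumor-bearing and healthy mice they were -0.15 to 0.11 in blood neutrophils and 0.08 to 0.25 in blood monocytes, where other pairs gave -0.17 to 0.13. Libraries with the same number in their titles correlated at -0.28 to 0.06 in 12 pairs within the tumor, at 0.04 in the 1 pair of neutrophils from tumor and blood and at -0.11 in the 1 pair of monocytes. The replicate number was then used as a block in every comparison, and the number in the title only within the tumor. With the replicate number as a block, the genes that passed went from 2443 to 1426 in neutrophils and from 2618 to 1701 in monocytes. They went from 3634 to 2926 in epithelial cells and from 1825 to 1497 in stromal cells. With this replicate block, Tgfbi (0.88, adjusted p = 0.0551), Angptl4 (3.10, adjusted p = 0.0794) and Ski (1.15, adjusted p = 0.0641) in monocytes lost their calls in edgeR. So did Angptl4 in epithelial cells (-2.11, adjusted p = 0.102) and Tgif1 in stromal cells (1.91, adjusted p = 0.0814). Other settings gave 7196 genes in neutrophils with all 40 libraries in 1 model, 3894 in monocytes and 442 against 33 in blood monocytes by DESeq2, and 4920 in stromal cells in tumor libraries 1 and 2 alone. Pmepa1 in neutrophils was 0.90 (adjusted p = 0.126) on log2(RPKM + 1) and 2.70 on log2(RPKM + 0.1), scales that understate changes of low genes. The median of all genes ranged over the settings from -0.15 to 0.24 in neutrophils, -0.26 to 0.05 in monocytes, -0.01 to 0.58 in epithelial and -0.30 to 0.04 in stromal cells. At this depth Angptl4, at 2 to 25 counts in neutrophils, could not be compared.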
